A study of Mus musculus with 12 samples.

Results

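Transcripts of 10 genes that handle iron, copper and zinc were followed in mouse liver, out of 23284 genes in the deposited table. The genes were chosen by name for their roles: the hepcidins Hamp and Hamp2, the metal transporters Slc39a14 and Slc40a1, the transferrin receptors Tfrc and Tfr2, the ferritin heavy chain Fth1, ceruloplasmin Cp, and the metallothioneins Mt1 and Mt2. Every mouse carried homozygous knockouts of both Apoa1 and Apoe (Apoa1-/- Apoe-/-, called DKO), so no group had wild-type lipoprotein metabolism. Some mice also carried the human APOA1 gene (DKO/hA1), whose promoter and founder line are not given in the sources used here. For 22 weeks each mouse was fed chow, the standard laboratory diet, or Western diet, which is rich in fat. This gave 4 libraries of DKO mice on chow, 3 of DKO mice on Western diet, 2 of DKO/hA1 mice on chow and 3 of DKO/hA1 mice on Western diet. These numbers are the n of every group value. The error of a level is the SD, and that of a log2 difference the SE. The age and sex of the mice are not given in the sources used here, and the labels do not say whether the libraries came from separate animals, so the p-values measure the spread between these libraries.

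The liver stores iron, makes most of the proteins that carry iron and copper in plasma, and sets how much iron enters the blood. Hepatocytes secrete hepcidin, a peptide hormone that binds the iron exporter ferroportin (Slc40a1) and has it degraded, so that iron stays in macrophages and gut cells. Hepcidin transcription responds to iron through bone morphogenetic protein (BMP) signalling to SMAD factors, and to inflammation through interleukin 6 and STAT3. Metallothioneins are small cysteine-rich proteins that bind zinc and copper, and their genes respond to metals through the zinc-sensing factor MTF1 and also to glucocorticoids and inflammation.

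The sequences of the hepcidin promoters show where these inputs are known to act, and how alike the paired genes are. Mice have a pair of hepcidin genes side by side on chromosome 7, Hamp (chr7:30942368-30944029) and Hamp2 (chr7:30922372-30924181), both on the minus strand of GRCm38.p6. The 250 bases before each start, from RefSeq, are given 5′ to 3′ on the gene's strand, for Hamp chr7:30944030-30944279 and for Hamp2 chr7:30924182-30924431. Capitals mark the BMP response element core GGCGCC and the STAT site TTCNNNGAA, both searched on both strands.
Hamp: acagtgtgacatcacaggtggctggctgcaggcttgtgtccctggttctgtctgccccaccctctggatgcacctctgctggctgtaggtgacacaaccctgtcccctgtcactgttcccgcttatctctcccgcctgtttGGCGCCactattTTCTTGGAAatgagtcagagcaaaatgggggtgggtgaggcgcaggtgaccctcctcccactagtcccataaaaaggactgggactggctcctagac
Hamp2: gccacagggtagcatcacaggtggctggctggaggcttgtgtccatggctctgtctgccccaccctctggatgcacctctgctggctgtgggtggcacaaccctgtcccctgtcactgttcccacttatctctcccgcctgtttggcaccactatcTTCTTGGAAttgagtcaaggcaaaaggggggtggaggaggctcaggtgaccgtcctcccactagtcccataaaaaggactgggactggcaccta

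In Hamp the GGCGCC core lay 109 to 104 bases before the start and the STAT site 97 to 89 bases before it. Hamp2 held the STAT site 94 to 86 bases before its start. At the place of the BMP core it carried the substitution G4A, with positions counted from the first base of the element and Hamp named first. Over 32851 promoter windows of equal length in the RefSeq table, 9.59% held GGCGCC and 7.02% held TTCNNNGAA. The promoters were 91.9% identical over 247 aligned bases and the transcripts 94.6% identical over 410, with a longest shared run of 87 bases. How the authors' counting divided reads between the pair is not known, so the separate levels of Hamp and Hamp2 are uncertain.

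The 30-base stretches of Mt1 and Mt2 show a metal response element, the site MTF1 is known to bind. They lie within exon 1 as GENCODE annotates it, just before the TATA box, on the plus strand of GRCm38 (Mt1 chr8:94179183-94179212, Mt2 chr8:94172725-94172754). Capitals mark the core TGCNCNC.
Mt1: ccttTGCGCCCggactcgtccaacgactat
Mt2: ctttTGCGCTCgacccaatactctccgcta

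Mt1 held 4 matches to this core in the 128 bases of its transcript before the TATA box, and Mt2 held 3 in 89 bases. Of all transcripts with at least that length, 0.177% held 4 or more in their first 128 bases and 0.483% held 3 or more in their first 89. These lengths and counts were set from Mt1 and Mt2 themselves, so the shares are a description and no test. In the 250 bases before the RefSeq start, Mt1 held 1 match and Mt2 held 5. Of the promoter windows of that length, 44.4% held at least 1 match and 1.28% held 4 or more. The Mt1 and Mt2 transcripts were 72.0% identical, with a longest shared run of 20 bases.

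Several of the other genes are controlled after transcription, through iron responsive elements: hairpins bound by iron regulatory proteins when iron is low, which block translation from a 5′ UTR and stabilise the transcript from a 3′ UTR. The hairpins found in GRCm38 transcripts are shown because they bear on Fth1, Slc40a1 and Tfrc. Capitals mark the loop CAGTGN, flanked by 5 stem pairs. Fth1 carried it in the 5′ UTR of exon 1 (chr19:9982738-9982754, plus strand) and Slc40a1 in the 5′ UTR of exon 1 (chr1:45925471-45925487, minus strand). Tfrc carried 4 in the 3′ UTR of exon 19, of which the first, at chr16:32631225-32631241 on the plus strand, is printed. Of 21877 genes, 1.01% held this pattern in a protein-coding transcript.
Fth1: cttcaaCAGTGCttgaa
Slc40a1: cagctaCAGTGTtagct
Tfrc: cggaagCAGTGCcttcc

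Across the series, FPKM (fragment numbers normalised for transcript length and sequencing depth) summed to 379689 to 578927 per library. Read numbers are not used here, and depth estimated from the steps of low values ran from 0.514 to 1.31 times that of DKO chow replicate 1. Apoa1 stood at 30.4 to 77.4 FPKM in the 7 libraries without the transgene and at 122 to 239.8 in the 5 with it, with no overlap. Apoe was listed at 25.7 to 89.8 FPKM without and 12.9 to 53.2 with the transgene, and the signal of both knocked-out genes is not assigned to a source. All 10 hepatocyte markers were detected, and their summed level was 21692 to 33664 FPKM over the libraries. They include Fgb, at 1909 to 9614 FPKM, which is also on the list of inflammation-induced genes used below. Tat, another of them, is also on the glucocorticoid response list. The sum therefore does not measure hepatocyte content alone. Levels come from whole liver, so fewer cells of a type and less RNA per cell cannot be told apart.

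All 10 metal genes reached 1 FPKM in all 12 libraries and were tested. Differences were tested with limma on log2(FPKM + 1), over 11546 genes, and a gene was called at a Benjamini-Hochberg adjusted p below 0.05. Their levels ran from among the most abundant transcripts to the middle of the range. Among the genes tested, Hamp ranked between 14 and 121 in single libraries and Fth1 between 35 and 57, while Tfrc ranked between 3818 and 7132. Between the lowest and highest library, Tfr2 differed 1.5-fold and Fth1 1.78-fold, Slc39a14 3.81-fold and Hamp 7.72-fold, and Mt1 133-fold and Mt2 261-fold.

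**Figure D1:**
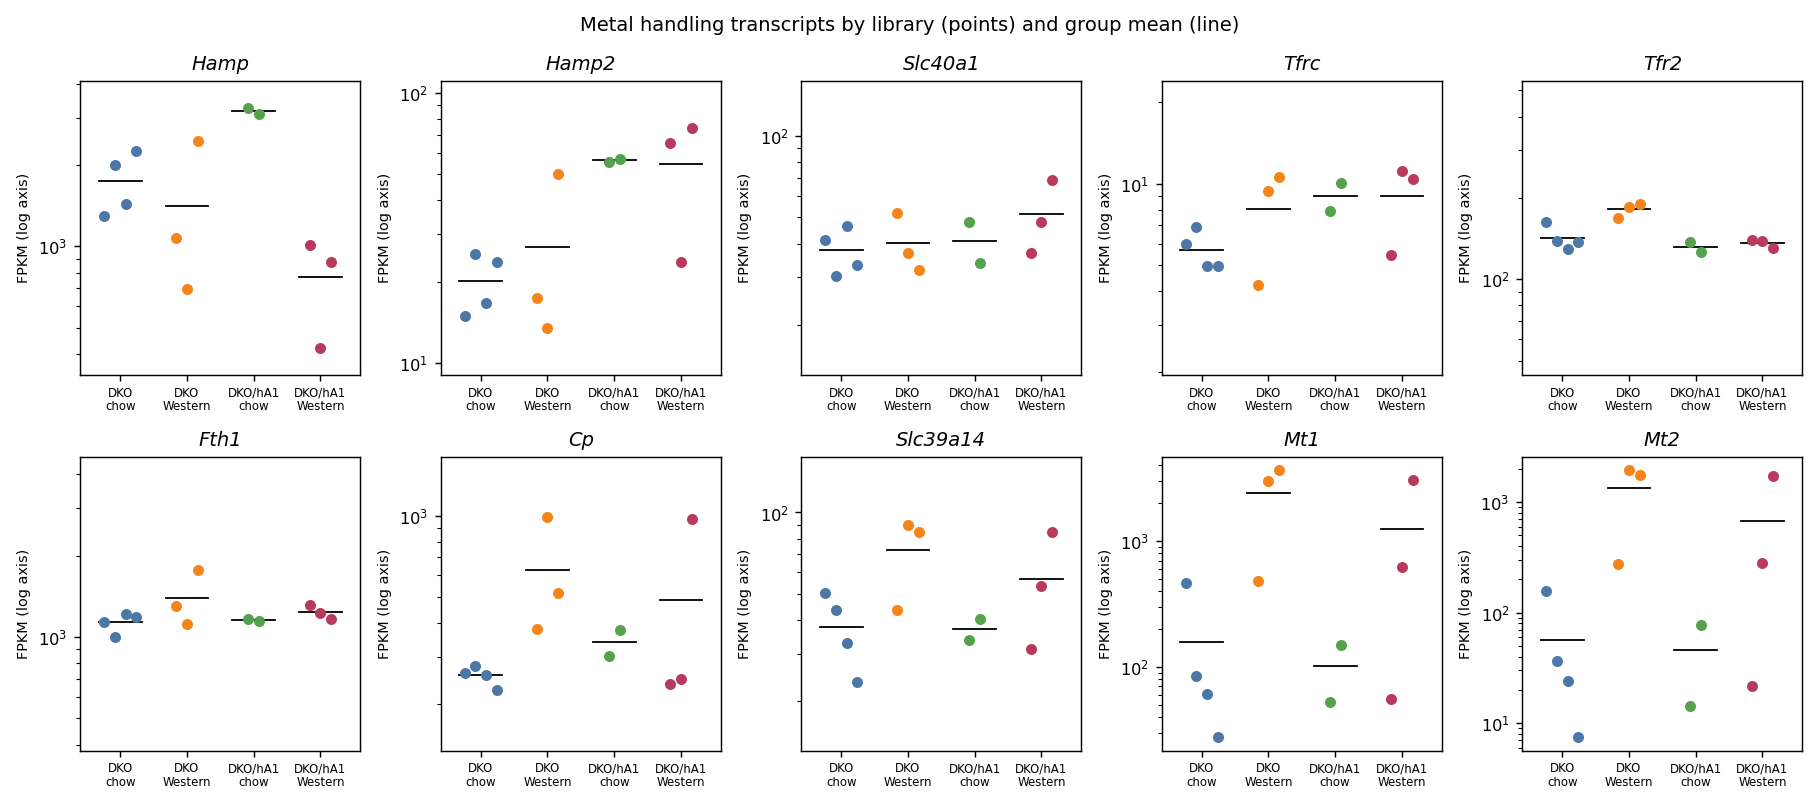
FPKM of the 10 genes in each of the 12 libraries, on log axes, by genotype and diet, with a point per library and a line at the group mean. Mt1 and Mt2 spread most among Western diet libraries (Mt1 56.1 to 3676 FPKM), and Tfr2 and Fth1 spread least.

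One gene of the 10 changed with diet: Hamp, the main hepcidin gene, was lower on Western diet when the diets were compared over both genotypes. Its log2 fold change was -1.34 ± 0.32 (limma, adjusted p = 0.042), and 4.06% of all genes tested were called in that comparison, 1.2% as lower. In DKO chow livers Hamp stood at 1297, 1994, 1438 and 2251 FPKM, and in DKO Western diet livers at 1077, 696 and 2450 FPKM. In DKO/hA1 chow livers it stood at 3253 and 3099 FPKM, and in DKO/hA1 Western diet livers at 1009, 421 and 875 FPKM. With human APOA1 the diets did not overlap, whereas without it they did, since DKO Western diet replicate 3 was above every DKO chow library.

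On chow the Hamp means were 1745 ± 452 FPKM in DKO and 3176 ± 109 in DKO/hA1 livers, and on Western diet they were 1408 ± 923 and 768 ± 308. With human APOA1 the diet difference was -2.14 ± 0.50 on the log2 scale (limma, adjusted p = 0.061), in a comparison where 1.43% of genes were called, and Hamp was the only one of the 10 whose diets did not overlap there. Over all genes, 30.3% did not overlap in that comparison, 14.7% in the lower direction. Without human APOA1 the diet difference was -0.55 ± 0.41 (limma, adjusted p = 0.65). It was -1.04 without DKO Western diet replicate 3 and -0.148 without DKO Western diet replicate 2. The difference between these diet effects, the interaction, was -1.60 ± 0.65 and was not called (limma, adjusted p = 0.96).

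The Hamp call depended on single libraries and on settings. It was lost (limma, adjusted p 0.0509 to 0.179) when any one of 10 libraries was left out, and it held without replicate 3 of DKO mice or without replicate 1 of DKO/hA1 mice on Western diet. The call was made under 6 of 20 alternative settings, over which the averaged log2 fold change ran from -1.59 to -1.15. With all 12 libraries it was lost with no filter on low values (limma, adjusted p = 0.069). It was also lost with replicate number as a block (limma, adjusted p = 0.0679). A block on the number in the sample names lost it too (limma, adjusted p = 0.105). That number, unexplained in the labels, was 41 to 49 on Western diet and 54 to 59 on chow. Its effect therefore cannot be told apart from that of diet. Both DKO/hA1 chow libraries carried 57, as did DKO chow replicate 3. With human APOA1 the diet call was made under 1 of the 20 settings, without DKO Western diet replicate 3 (log2 fold change -2.14, limma adjusted p = 0.0328).

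Hamp2, which in mouse encodes a hepcidin-like peptide that left iron unaltered when overexpressed, did not show the averaged diet difference of Hamp. It stood at 14.9, 25.3, 16.7 and 23.6 FPKM in DKO chow and at 17.4, 13.4 and 49.9 FPKM in DKO Western diet livers. With human APOA1 it stood at 55.7 and 57.1 FPKM on chow and at 65.2, 23.7 and 74.4 FPKM on Western diet. Both DKO/hA1 chow libraries were above all DKO chow libraries, and on Western diet the genotypes overlapped. Among DKO Western diet libraries Hamp2 had the same order as Hamp, whereas in every other group the orders differed. The averaged diet difference was -0.04 ± 0.36 on the log2 scale (limma, adjusted p = 0.97). The genotype difference on chow was 1.45 ± 0.53 (limma, adjusted p = 0.56), and on Western diet 1.10 ± 0.50 (limma, adjusted p = 0.85), neither of which was called.

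Hamp2 as a share of Hamp differed between the groups, as a description chosen after the values were seen and with no test. On chow the share was 1.05 to 1.27% in DKO and 1.71 to 1.84% in DKO/hA1 livers, and on Western diet it was 1.61 to 2.04% and 5.62 to 8.50%. The DKO/hA1 Western diet libraries were above all others. Hamp2 is also made in mouse pancreas. Of the other 6 pancreas genes on the list, Prss1, Cpa1, Pnlip and Ins2 were listed at 0 in all 12 libraries, Amy2a5 reached at most 0.0528 FPKM, and Cela1 was at 3.18 to 26.9 FPKM. An exact 0 may be a failed estimate in this table.

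**Figure D2:**
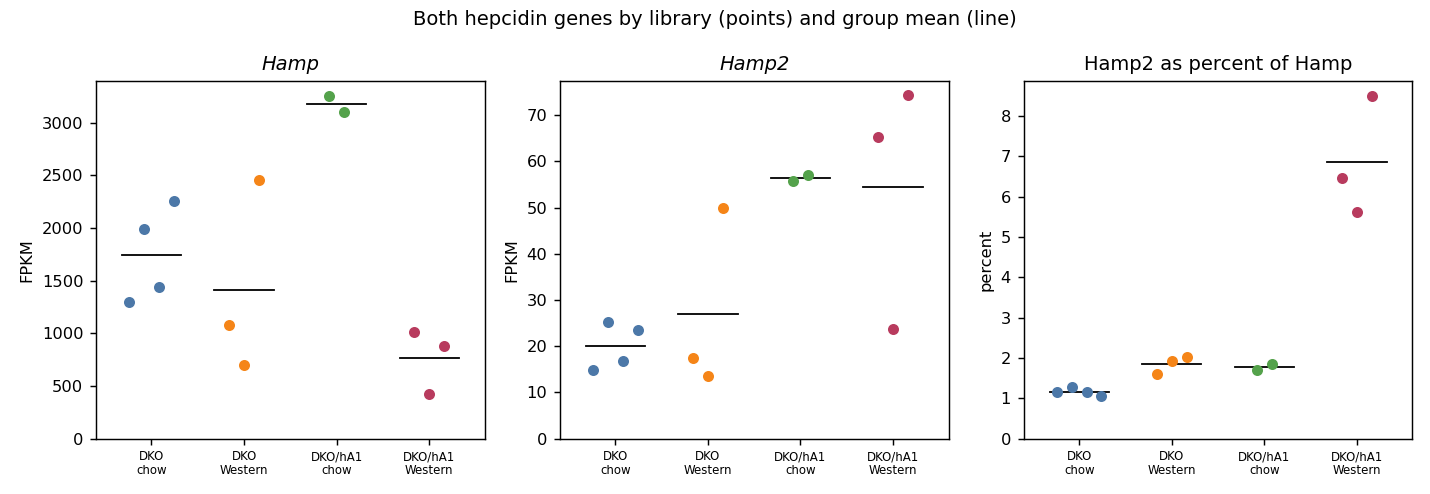
Hepcidin gene levels and their ratio per library: FPKM of Hamp and of Hamp2, and Hamp2 as a percentage of Hamp, by group. DKO/hA1 Western diet livers held the lowest Hamp value (421 FPKM) and the highest share of Hamp2 (5.62 to 8.50%).

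On chow, Hamp was also higher with the transgene in every library, 3253 and 3099 FPKM against at most 2251 FPKM, a log2 difference of 0.87 ± 0.47 that was not called (limma, adjusted p = 0.73). In the genotype comparison on chow, 4 of the 10 genes were higher without overlap: Hamp, Hamp2, Tfrc and Cp. None of the 10 was called by limma there, and 0.0779% of all genes were called. Of the 10, 1 was below an unadjusted p of 0.05 (Hamp2), as were 859 of all 11546 genes tested. Over all genes 21.6% did not overlap in that comparison, 12.3% in the higher direction, so with 2 libraries in a group non-overlap was common.

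The iron and BMP side of the hepcidin pathway showed no call. Its list held no gene of the inflammation input and included the BMP target Id1. It comprised 19 genes, of which 18 were tested, with a median averaged diet difference of -0.05 on the log2 scale against -0.0069 over all genes. None was called by limma with diet, genotype or their interaction. For the averaged diet 2258 of all 11546 genes tested were below an unadjusted p of 0.05, and so were 2 of the 18. These were Hfe, the haemochromatosis protein that pairs with transferrin receptors (0.22 ± 0.08, limma adjusted p = 0.18), and the BMP receptor Acvr2a (-0.24 ± 0.10, limma adjusted p = 0.20). Hfe was at 25.4 to 28.9 FPKM on chow and at 28.9 to 38.5 on Western diet, over both genotypes.

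A few further pathway genes are given for their known roles, picked with their values known. Id1, a direct target of BMP signalling, stood at 4.59, 3.37, 4.04 and 13.9 FPKM in DKO chow and at 5.58, 3.88 and 8.49 FPKM in DKO Western diet livers. In DKO/hA1 livers Id1 was at 17.2 and 4.59 FPKM on chow and at 4.74, 4.05 and 6.22 FPKM on Western diet. Id1 thus varied as much within both chow groups as between diets, with an averaged log2 difference of -0.39 ± 0.37 (limma, adjusted p = 0.61). Bmp6, the ligand that raises hepcidin in response to iron, was near the detection filter at 0.538 to 2.61 FPKM. Tmprss6, the protease that lowers hepcidin by cutting hemojuvelin, was at 89.2 to 149 FPKM, with an averaged difference of -0.22 ± 0.12 (limma, adjusted p = 0.36). Hemojuvelin itself (Hfe2), the BMP co-receptor, was at 18.2 to 31.3 FPKM in DKO chow and at 35.6 to 41.4 FPKM in DKO Western diet livers, without overlap, as 13.6% of all genes were (0.66 ± 0.21, limma adjusted p = 0.26). With human APOA1 the Hfe2 diets overlapped, at 28.5 to 29.0 FPKM on chow and 20.4 to 33.7 FPKM on Western diet.

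The transferrin receptors differed in level and in steadiness. Tfr2, which senses iron-loaded transferrin on hepatocytes and feeds into hepcidin control, stood at 162, 139, 129 and 138 FPKM in DKO chow and at 168, 186 and 189 FPKM in DKO Western diet livers. With human APOA1 it stood at 137 and 127 FPKM on chow and at 139, 139 and 131 FPKM on Western diet. The DKO Western diet libraries were the highest and overlapped no other group. Their difference from DKO chow was 0.28 ± 0.11 on the log2 scale (limma, adjusted p = 0.37), and the transgene difference on Western diet was -0.37 ± 0.12 (limma, adjusted p = 0.75).

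In the genotype comparison on Western diet, Tfr2 was the only one of the 10 whose groups did not overlap, where 9.54% of all genes did not (5.16% in the lower direction), and limma called 0% of all genes and none of the 10. Over all genes 679 were below an unadjusted p of 0.05 in that comparison, and of the 10 only Tfr2 was.

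Tfrc, the receptor through which most cells take up transferrin-bound iron, was the lowest of the 10 in all 12 libraries. It stood at 6.0, 6.92, 4.94 and 4.94 FPKM in DKO chow and at 4.21, 9.43 and 10.5 FPKM in DKO Western diet livers. Livers with the transgene held 7.94 and 10 FPKM on chow and 5.45, 11.2 and 10.4 FPKM on Western diet. On Western diet 1 library of each genotype was low and the others were high, and the diets overlapped in both genotypes. The averaged diet difference was 0.13 ± 0.23 (limma, adjusted p = 0.81).

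Iron export and storage genes were not called. Slc40a1, ferroportin, the only known cellular iron exporter in mammals, averaged 37.8 ± 7.47 FPKM in DKO and 41.0 ± 9.85 in DKO/hA1 livers on chow, and 40.1 ± 10.3 and 51.4 ± 16.3 on Western diet. Its averaged diet difference was 0.15 ± 0.18 on the log2 scale (limma, adjusted p = 0.71), and its highest value, 69.0 FPKM, was in DKO/hA1 Western diet replicate 3. Fth1, the ferritin subunit that oxidises iron for storage, was on chow at 997 to 1222 FPKM in DKO and 1142 to 1169 in DKO/hA1 livers, and on Western diet at 1119 to 1772 and 1162 to 1309. The Fth1 diets overlapped in both genotypes, with DKO Western diet replicate 3 highest at 1772 FPKM, and the averaged difference was 0.15 ± 0.13 (limma, adjusted p = 0.58). Fth1 and Slc40a1 carry the 5′ UTR hairpins printed above, whose effect on translation is not measured by these transcript levels.

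**Figure D3:**
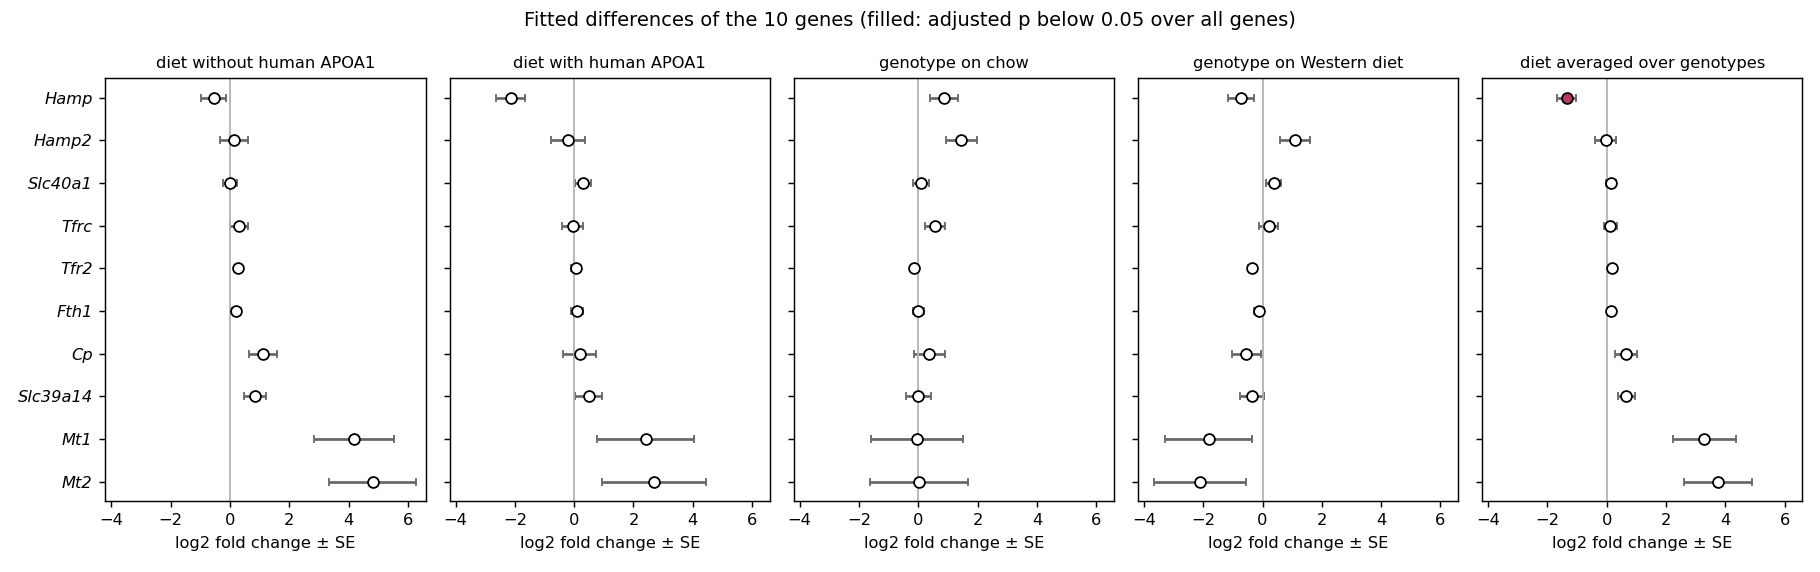
Log2 fold changes of the 10 genes in the diet and genotype comparisons, with bars of 1 SE, from limma on log2(FPKM + 1), where a filled point marks a called gene. Hamp lies below 0 in the diet comparisons (-0.55, -2.14 and, averaged, -1.34), while Mt1 and Mt2 lie highest there with the widest bars.

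Cp, the secreted ferroxidase that carries most copper in plasma, ranged 4.39-fold. It stood at 262, 278, 258 and 225 FPKM in DKO chow and at 381, 989 and 517 FPKM in DKO Western diet livers. With the transgene it stood at 302 and 376 FPKM on chow and at 238, 247 and 973 FPKM on Western diet. All DKO Western diet libraries were above all DKO chow libraries, and in DKO/hA1 mice only replicate 3 on Western diet was above chow. The difference without human APOA1 was 1.11 ± 0.47 on the log2 scale (limma, adjusted p = 0.39), and with it 0.19 ± 0.56.

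Slc39a14 (ZIP14), the importer through which hepatocytes take up zinc, manganese and iron not bound to transferrin, stood at 50.5, 43.7, 33.0 and 23.5 FPKM in DKO chow and at 43.4, 89.7 and 84.4 FPKM in DKO Western diet livers. With human APOA1 Slc39a14 stood at 33.9 and 40.3 FPKM on chow and at 31.3, 53.4 and 84.8 FPKM on Western diet. On Western diet, replicate 1 lay within the chow range of its genotype in DKO mice and below it in DKO/hA1 mice. Replicate 3 lay well above that range in each genotype. The difference without human APOA1 was 0.84 ± 0.37 (limma, adjusted p = 0.41), and averaged over genotypes it was 0.66 ± 0.29 (limma, adjusted p = 0.24).

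The metallothioneins had the widest range. Mt1 stood at 462, 84.9, 61.3 and 27.6 FPKM in DKO chow and at 479, 3032 and 3676 FPKM in DKO Western diet livers. With the transgene Mt1 stood at 52.8 and 151 FPKM on chow and at 56.1, 628 and 3089 FPKM on Western diet. Mt2 moved with Mt1, on chow at 7.47 to 157 FPKM in DKO and 14.3 to 77.5 in DKO/hA1 livers, and on Western diet at 278 to 1953 and 21.9 to 1719. For both genes the DKO diets did not overlap, although DKO chow replicate 1 came close for Mt1 (462 against 479 FPKM), and the DKO/hA1 diets overlapped through replicate 1 on Western diet.

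Without human APOA1 the diet difference was 4.18 ± 1.36 on the log2 scale for Mt1 (limma, adjusted p = 0.29) and 4.81 ± 1.46 for Mt2 (limma, adjusted p = 0.26). Averaged over genotypes it was 3.29 ± 1.06 for Mt1 (limma, adjusted p = 0.12) and 3.75 ± 1.14 for Mt2 (limma, adjusted p = 0.10), neither called. Without DKO/hA1 Western diet replicate 1 both were called (Mt1 4.07, limma adjusted p = 0.0325, and Mt2 4.57, limma adjusted p = 0.0277). Mt2 ran at 27.0 to 64.4% of Mt1 over all libraries.

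In the diet comparison without human APOA1, 4 of the 10 genes were higher without overlap (Cp, Mt1, Mt2 and Tfr2), where 13.6% of all genes did not overlap and 10.5% did so in the higher direction. Limma called none of the 10 and 0.113% of all genes there. Below an unadjusted p of 0.05 were 5 of the 10, all higher on Western diet. Of all 11546 genes tested 1358 were below it, 818 of them higher. In the interaction limma called none of the 10 and 0.0173% of all genes. There 1 of the 10, Hamp, was below an unadjusted p of 0.05, as were 569 of all genes. The median log2 difference of the 10 was 0.29 for diet without human APOA1, 0.14 with it and 0.16 averaged, beside all-gene medians of -0.0066, -0.0036 and -0.0069.

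The metallothionein and Slc39a14 values were highest in the libraries highest for acute phase transcripts, which encode liver proteins induced by inflammation. They did not follow these transcripts throughout. Of 19 acute phase genes, 6 rose with Western diet averaged over genotypes and none fell, with a median log2 difference of 1.54; 2.86% of all genes tested rose. Saa2 and Saa1, serum amyloid A genes, had the highest mean levels on the list, and Saa2 rose by 5.43 ± 1.10 (limma, adjusted p = 0.026). The mean log2 level of the list was 7.97, 7.76, 7.13 and 7.02 in DKO livers on chow and 9.13, 10.99 and 10.27 in those on Western diet. With human APOA1 it was 7.32 and 8.14 on chow and 7.97, 8.43 and 10.98 on Western diet. DKO Western diet replicate 1, at 9.13, had less Slc39a14 than DKO chow replicate 1, at 7.97 (43.4 against 50.5 FPKM). DKO/hA1 Western diet replicate 1, also at 7.97, had less Mt1 than DKO chow replicate 1 (56.1 against 462 FPKM). The 3 libraries highest on this list, replicates 2 and 3 of DKO mice and replicate 3 of DKO/hA1 mice on Western diet, were also the 3 highest for Mt1, Mt2 and Slc39a14.

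Hamp did not follow that order: in those 3 libraries it stood at 696, 2450 and 875 FPKM. Within DKO chow, replicate 1 was highest for the acute phase list, for Mt1 and for Slc39a14. The 10 glucocorticoid response genes, a signal to which Mt1 is also known to respond, had a median averaged diet difference of 0.12. In DKO livers their mean log2 level was 5.02, 4.76, 4.68 and 4.58 on chow and 4.41, 5.14 and 5.05 on Western diet. With human APOA1 it was 4.43 and 4.82 on chow and 4.69, 5.27 and 5.34 on Western diet. Within every group this list and the acute phase list both had the order of Slc39a14. The parts of the acute phase and glucocorticoid responses in the metal gene values were not tested.

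**Figure D4:**
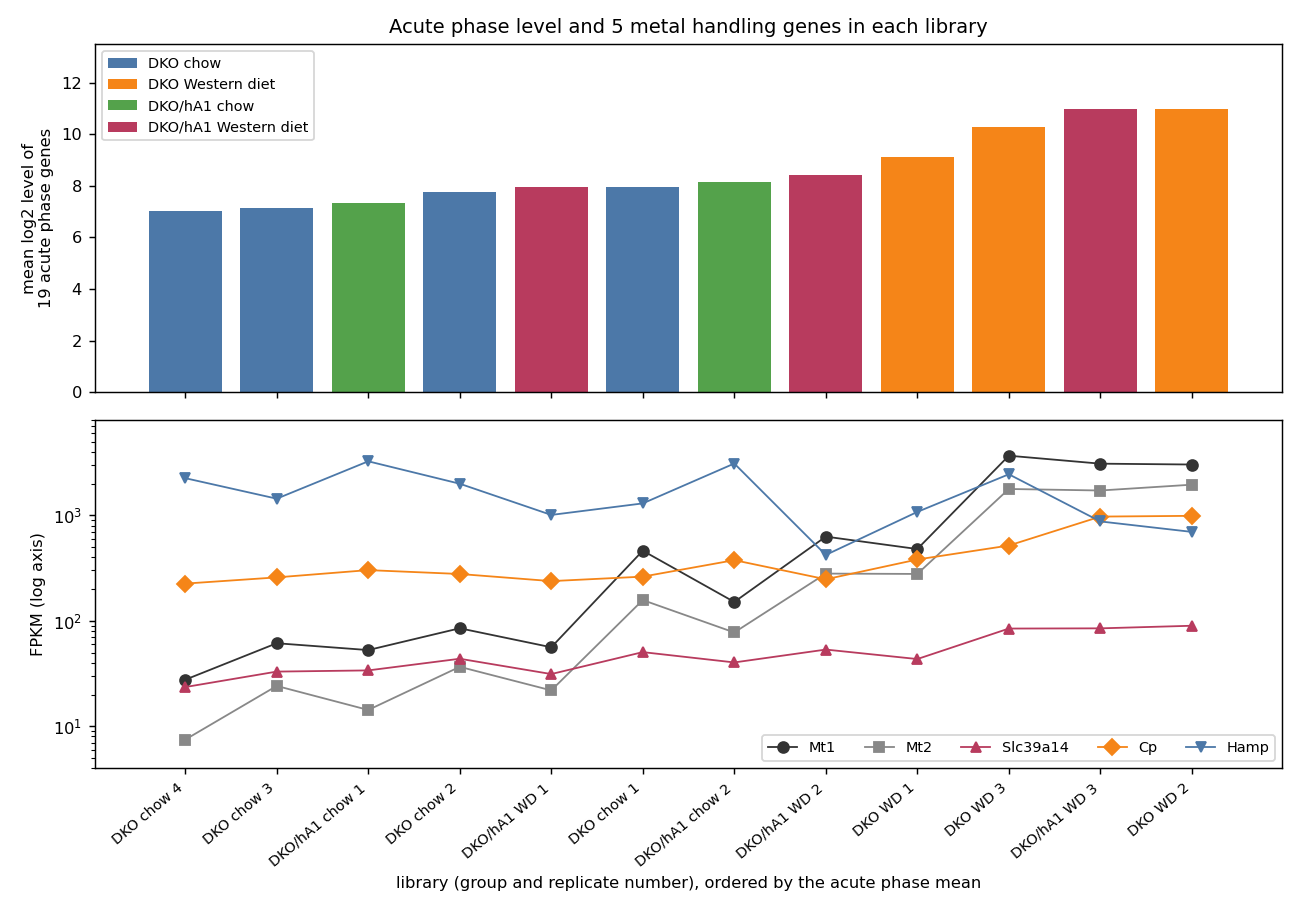
The 12 libraries ordered by their acute phase level: bars show the mean log2 level of 19 acute phase genes, coloured by group (WD is Western diet), and lines below show FPKM of Mt1, Mt2, Slc39a14, Cp and Hamp on a log axis. Mt1, Mt2, Slc39a14 and Cp are highest in the 3 libraries on the right, with acute phase levels of 10.27 to 10.99, and Hamp in those libraries runs from 696 to 2450 FPKM.

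Markers of other cells are given beside these values. Of 9 neutrophil markers 7 were tested, and 1, Csf3r, rose with the averaged diet (0.80 ± 0.19, limma adjusted p = 0.043). Their summed level on chow was 12.6 to 23.3 FPKM in DKO and 22.5 to 29.8 in DKO/hA1 livers, and on Western diet 96.2 to 949 and 17.6 to 867. Ly6g is not in the table used here, and no listed neutrophil marker was at 0 in all libraries. The highest were replicate 2 of DKO and replicate 3 of DKO/hA1 mice on Western diet, and without both of them Hamp was no longer called (averaged -1.22, limma adjusted p = 0.0934). Of 12 Kupffer cell markers, 6 rose with Western diet averaged over genotypes, where 2.86% of all genes rose. Their median log2 difference was 1.39, and none was at 0. For diet with human APOA1 6 of these markers were called, and without it 0 were. Of all genes 1.43% and 0.113% were called in these comparisons. Their summed level on chow was 223 to 561 FPKM in DKO and 152 to 435 in DKO/hA1 livers, and on Western diet 761 to 942 and 1101 to 1592. The DKO/hA1 Western diet libraries, lowest in mean Hamp, were highest in this sum, which does not hold for each marker. For genotype on Western diet the log2 difference was positive for 11 of the 12 markers and negative for 1, with 0 called. The averaged diet also gave 11 positive and 1 negative. The part of these markers in the Hamp difference was not tested.

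Iron uptake and storage genes outside the 10 gave 1 call with the averaged diet. Of 29 listed, 26 were in the table and 20 were tested, so the share called was near the 4.06% of all genes, and their median difference was 0.02. Lcn2, which encodes a secreted protein that binds bacterial iron carriers, rose by 4.93 ± 0.98 on the log2 scale (limma, adjusted p = 0.023). On chow it stood at 8.70 to 65.5 FPKM in DKO and 9.34 to 52.8 in DKO/hA1 livers, and on Western diet at 401 to 3222 and 89.7 to 3574. Lcn2 is also on the acute phase list, and its diets did not overlap in either genotype. Slc11a1, a phagosomal metal transporter of macrophages, differed by 0.95 ± 0.24 without a call (limma, adjusted p = 0.059).

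Transferrin itself, the plasma iron carrier (Trf), was not tested. On chow it was at 5622 to 6858 FPKM in DKO and 8127 to 8933 in DKO/hA1 livers. On Western diet it was at 6734 to 18732 FPKM in DKO livers and was listed at 0 in all 3 DKO/hA1 Western diet libraries. Alb and a set of Mup genes were also listed at 0 through a group, and all were left out of the tests. The Trf ranges of DKO livers on chow and Western diet overlapped by their ends, and on chow those of the genotypes did not overlap, as 21.6% of all genes did not.

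Of 17 heme genes, 1 rose with the averaged diet and 1 with Western diet within DKO/hA1 mice, Blvra in both cases. The averaged median was 0.12. Over all genes 4.06% and 1.43% were called in these comparisons, so 1 call is near the background. Blvra, the reductase that turns biliverdin into bilirubin, rose with the averaged diet by 0.45 ± 0.09 (limma, adjusted p = 0.025). With Western diet within DKO/hA1 mice it rose by 0.68 ± 0.15 (limma, adjusted p = 0.046). In DKO/hA1 livers Blvra was at 7.21 and 7.46 FPKM on chow and at 11.7, 11.2 and 14.5 FPKM on Western diet, without overlap. Hmox1, the enzyme that breaks heme open and releases its iron, differed by 1.06 ± 0.27 without a call (limma, adjusted p = 0.053).

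Copper genes showed no call in any comparison. For the averaged diet, limma called 0 of 14, and the median was -0.07. Of all 11546 genes tested 2258 were below an unadjusted p of 0.05 there, and of the 14 only 1 was. That gene was Atox1, the chaperone that hands copper to the secretory pathway (0.33 ± 0.13, limma adjusted p = 0.17), and next came the extracellular superoxide dismutase Sod3 (0.50 ± 0.24, limma adjusted p = 0.29).

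Of 25 zinc genes 18 were tested, and 1 rose with the averaged diet, near the 2.86% of all genes that rose, with a median of -0.01. Slc39a13 (ZIP13), a zinc transporter of intracellular membranes, rose by 0.32 ± 0.08 on the log2 scale (limma, adjusted p = 0.041). Without the transgene it was at 3.19 to 3.74 FPKM on chow and 4.67 to 5.52 on Western diet, and with it at 3.81 to 4.2 and 4.65 to 5.28. The diets did not overlap in either genotype. Slc39a4 (ZIP4), a zinc importer best known from the gut, was lower without overlap in both genotypes and was not called (-0.45 ± 0.13, limma adjusted p = 0.079).

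The genes with the most similar pattern over the 12 libraries were ranked by the root mean square difference of standardised log2 levels, where 0 is the same pattern. For Mt1 these were Mt2 (0.0900), Prtn3 (0.218) and Fgl1 (0.227), and for Slc39a14 they were Fgl1 (0.209), Cyp3a13 (0.238) and Ppp4r4 (0.248). Fgl1, a liver-secreted fibrinogen-like protein, was thus near both. Prtn3, a neutrophil granule protease, ran from 0.356 to 72.1 FPKM. The nearest genes to Hamp were less close, namely Htatip2 (0.391), Gss (0.398) and Creld1 (0.412), and so were those to Tfrc, namely Arf6 (0.440), Zfp809 (0.468) and Taf2 (0.486). Htatip2 was at 30.5 and 30.9 FPKM in DKO/hA1 chow and at 13.0 to 25.5 FPKM elsewhere.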

How the data were processed

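Liver RNA of 12 libraries was sequenced, and the authors deposited FPKM per gene, although the table's name says counts. Per the submitters' processing notes, TopHat 1.3.2, Bowtie 0.12.8, SAMtools 0.1.19 and Cuffdiff were used with mm10. The planned count test was replaced by limma 3.58.1 in R 4.3.3 on log2(FPKM + 1), with trended robust variance and a 4-group model. Libraries were scaled by the trimmed mean of log ratios to a reference library, without weights (trims 0.3 and 0.05). Genes with at least 1 FPKM in at least 2 libraries were tested. Small RNA genes (788) and 22 genes listed at 0 through a group but at 1 FPKM or more throughout another were left out. Members and lists were chosen with earlier results of these data known. Named list genes were those called, the 2 lowest p per metal list for the averaged diet, Trf, the 2 highest acute phase genes and the 3 nearest patterns; genes named outside this rule are marked as such. Alternatives were the value added, scaling, filter, variance, blocks and left-out libraries. Sequences came from RefSeq (GRCm38.p6) and GENCODE M21, read with Python 3.11.15.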

Additional observations from a re-analysis of the deposited data

Results flagged for a closer look

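Mt1 in DKO chow livers had 1 library far from the others: replicate 1, at 462 FPKM, against 84.9, 61.3 and 27.6 FPKM. Its gap to the nearest library was 0.868 of the range of the group, above Dixon's critical value for 4 libraries. Of 12 sets of values tested in this way 1 passed. Chance alone passes about 1 in 20 only for independent sets of normally distributed values. Here the sets were untransformed values that all came from the same 4 libraries, so that rate need not hold. On the log2 scale used for the other tests, Mt1 was at 8.86, 6.53, 5.96 and 4.85 in these libraries, where Dixon's test was not run.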

How the results depend on the processing

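The counts of called genes depended on the settings. Adding 0.1 FPKM gave 3 genes for genotype on chow. Equal totals gave 69 for diet with human APOA1 and 1 for the interaction, and gave all-gene medians of -0.186 (diet without human APOA1), 0.164 (genotype on Western diet), 0.111 (interaction) and -0.137 (averaged diet), beside -0.0066, -0.00072, 0.0099 and -0.0069 as reported. No filter gave 27 for genotype on chow and 8 for the interaction. Replicate numbers did not pair the samples throughout. Correlations of deviations were 0.448 for genotype on chow, replicate 2, and 0.442 for genotype on Western diet, replicate 1. The other pairs ran from -0.246 to 0.0504. The Western diet pair at 0.442 shared the number 41 in the sample names, whereas the chow pair carried 56 and 57. A replicate block gave 85 for diet with human APOA1 and 1 for the interaction, and Hamp then had an averaged adjusted p of 0.0679 in limma. A block on the number in the sample names gave 19 for diet with human APOA1, 28 for genotype on chow and 40 for the averaged diet. Without both libraries highest in neutrophil markers the counts were 31 and 56 for diet without and with human APOA1, 38 for genotype on chow and 242 averaged. The no-filter, replicate block, name block and left-out-pair settings each left 0 of the 10 genes called in the averaged diet. Leaving out 1 library gave 7 to 71 and 6 to 191 genes for diet without and with human APOA1, 2 to 33 for genotype on chow, 1 to 8 for the interaction and 31 to 547 averaged, with 0 to 3 of the 10 called averaged and 0 to 1 with human APOA1.

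The differences whose sign turned were not called, and the cause was not tested. With equal totals these log2 values were -0.0752 (Hamp2), -0.21 (Slc40a1) and -0.015 (Fth1) for diet without human APOA1, -0.0497 (Tfr2) and -0.0062 (Fth1) with it, 0.025 (Mt1, genotype on chow), 0.089 (Fth1, genotype on Western diet), 0.0089 (Fth1, interaction), and -0.0078 (Slc40a1), -0.015 (Tfrc) and -0.011 (Fth1) averaged. With no filter, genotype on chow gave -0.0093 (Slc39a14) and -0.0062 (Fth1). The replicate block gave -0.0561 (Slc40a1, diet without human APOA1), -0.10 (Slc39a14) and -0.20 (Mt2, both genotype on chow). The name block gave -0.0175 (Tfr2, diet with human APOA1), and -0.0762 (Slc40a1), -0.0429 (Fth1) and 0.28 (Mt1) for genotype on chow. Without both libraries, Cp was -0.49 with human APOA1 and Tfrc -0.0127 averaged.

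Leaving out 1 library gave, for genotype on chow, -0.0325 to 0.0308 (Fth1), -0.81 to 0.72 (Mt1), -0.20 to 0.15 (Slc39a14), -1.17 to 1.22 (Mt2) and -0.14 to 0.31 (Slc40a1). For genotype on Western diet it gave -0.15 to 0.50 (Tfrc), -0.25 to 0.0647 (Fth1) and -0.71 to 0.0122 (Slc39a14). For diet without human APOA1 it gave -0.19 to 0.16 (Slc40a1) and -0.41 to 0.49 (Hamp2), and with it -0.22 to 0.25 (Tfrc), -0.0032 to 0.0833 (Tfr2), -0.52 to 0.29 (Hamp2) and -0.49 to 0.55 (Cp). Averaged Hamp2 gave -0.31 to 0.21. The interaction gave -0.69 to 0.20 (Hamp2), -0.25 to 0.0614 (Fth1) and -0.72 to 0.0118 (Slc39a14).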
